A study of Mus musculus with 12 samples.

Results

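The genes described here are 40 genes of mitosis and the spindle, fixed as a list of symbols and read from the rows of the deposited count tables that carry those symbols. All 40 were found among the 24147 genes of the tables, and all 40 passed the filter on low counts that left 14560 genes for testing. RNA was sequenced from lens capsules with their attached lens epithelial cells, a single sheet of cells that lines the front of the lens, after the fiber cell mass had been taken out of the eyes of living mice as a model of cataract surgery. The 4 groups of 3 libraries were FNcKO mice, in which the gene for fibronectin is conditionally deleted, at 48 h and at 0 h after this surgery, and wild type (WT) mice at 48 h and at 0 h. Animals of every group were adults of 2 months. FNcKO mice had a mixed C57BL/6, 129 and FVB/N background and WT mice were C57BL/6, so genotype and strain background cannot be told apart. The sources used here give neither the promoter that drives the deletion in the FNcKO mice nor the number of lenses or animals in a library.

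Cells that enter mitosis transcribe a shared set of genes late in the cycle, in G2 and M phase. Cyclins A and B switch on Cdk1, mitotic kinases and kinesins build the spindle, kinetochores tie the chromosomes to it, and the checkpoint holds the anaphase-promoting complex (APC/C) back until every chromosome is attached. Many of these genes are known to be repressed in resting cells by the DREAM complex and switched on by B-Myb and FOXM1, through a promoter element called the cell cycle genes homology region (CHR) together with CCAAT boxes bound by NF-Y. In the adult lens only few epithelial cells divide, most of them in the germinative zone near the equator, and injury of the lens is known to bring more of them into the cycle.

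Levels are counts per 1e6 (CPM), scaled by library size and TMM factor. Fold changes were tested with edgeR's quasi-likelihood F test, and a gene is called where its Benjamini-Hochberg (BH) adjusted p over all 14560 genes lay under 0.05. Nothing in the labels ties a library to separate animals beyond the words of the design, which speaks of biological triplicates, so the p-values measure the spread between these libraries. Library totals ran from 8368160 to 10862573 counts. Fn1, the targeted gene, had 146, 298 and 688 CPM in FNcKO and 1515, 528 and 979 CPM in WT libraries at 48 h, and 16.8, 9.81 and 8.32 CPM in FNcKO and 19.0, 23.1 and 15.5 CPM in WT libraries at 0 h. Its 48 h libraries overlapped between the genotypes, and since the labels name no deleted exons, whole-gene counts do not check the labels. The labels give no sex. Xist, transcribed in female cells, ran from 4.96 to 13.5 CPM in 5 libraries and from 269 to 3541 CPM in the other libraries, while the Y-linked Ddx3y had 0.381 and 0.602 CPM in WT 48 h replicate 1 and WT 0 h replicate 3 and 28.0 to 84.1 CPM elsewhere, so that 5 libraries held both. The part of sex in the results was not tested.

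The 40 genes were higher at 48 h than at 0 h in both genotypes, nearly without exception. In FNcKO capsules 40 of 40 rose and 0 fell, where 14.9% of all tested genes rose and 9.9% fell, and the median log2 fold change of the 40 was 3.27, against 0.00 over all tested genes. In WT capsules 39 of 40 rose and 0 fell, where 19.1% of all tested genes rose and 13.5% fell, and the median was 3.49, against 0.02 over all tested genes. The gene that missed the threshold in WT was Spc25. Among the 40, 27 rose at least 8-fold in FNcKO, where 3.54% of all tested genes did, and 30 in WT, where 4.05% did. The largest change in FNcKO was that of Ndc80 (20.4-fold) and in WT that of Kif2c (28.7-fold). The smallest called changes were those of Mad2l1 in FNcKO (3.71-fold) and Racgap1 in WT (4.85-fold).

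The libraries of the 2 times were also apart one by one. In FNcKO, every 48 h library lay above every 0 h library for 40 of the 40 genes, where 20.1% of all tested genes showed this, and in WT for 39 of the 40, where 27.5% did. Across genotypes, the lowest of the 6 libraries at 48 h lay above the highest of the 6 at 0 h for 39 genes, again with Spc25 as the exception. The summed level of the 40 genes was 1612, 3240 and 3145 CPM in the FNcKO 48 h libraries, against 340.5, 262.5 and 293.5 CPM in the FNcKO 0 h libraries. It was 2919, 739.7 and 2752 CPM in the WT 48 h libraries, against 261.1, 145.5 and 252.5 CPM in the WT 0 h libraries. Both pairs of groups were fully separated, and WT 48 h replicate 2 was by far the lowest of the 48 h libraries. In bulk RNA such as this, fewer cells of a type and less RNA per cell cannot be told apart.

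**Figure D1:**
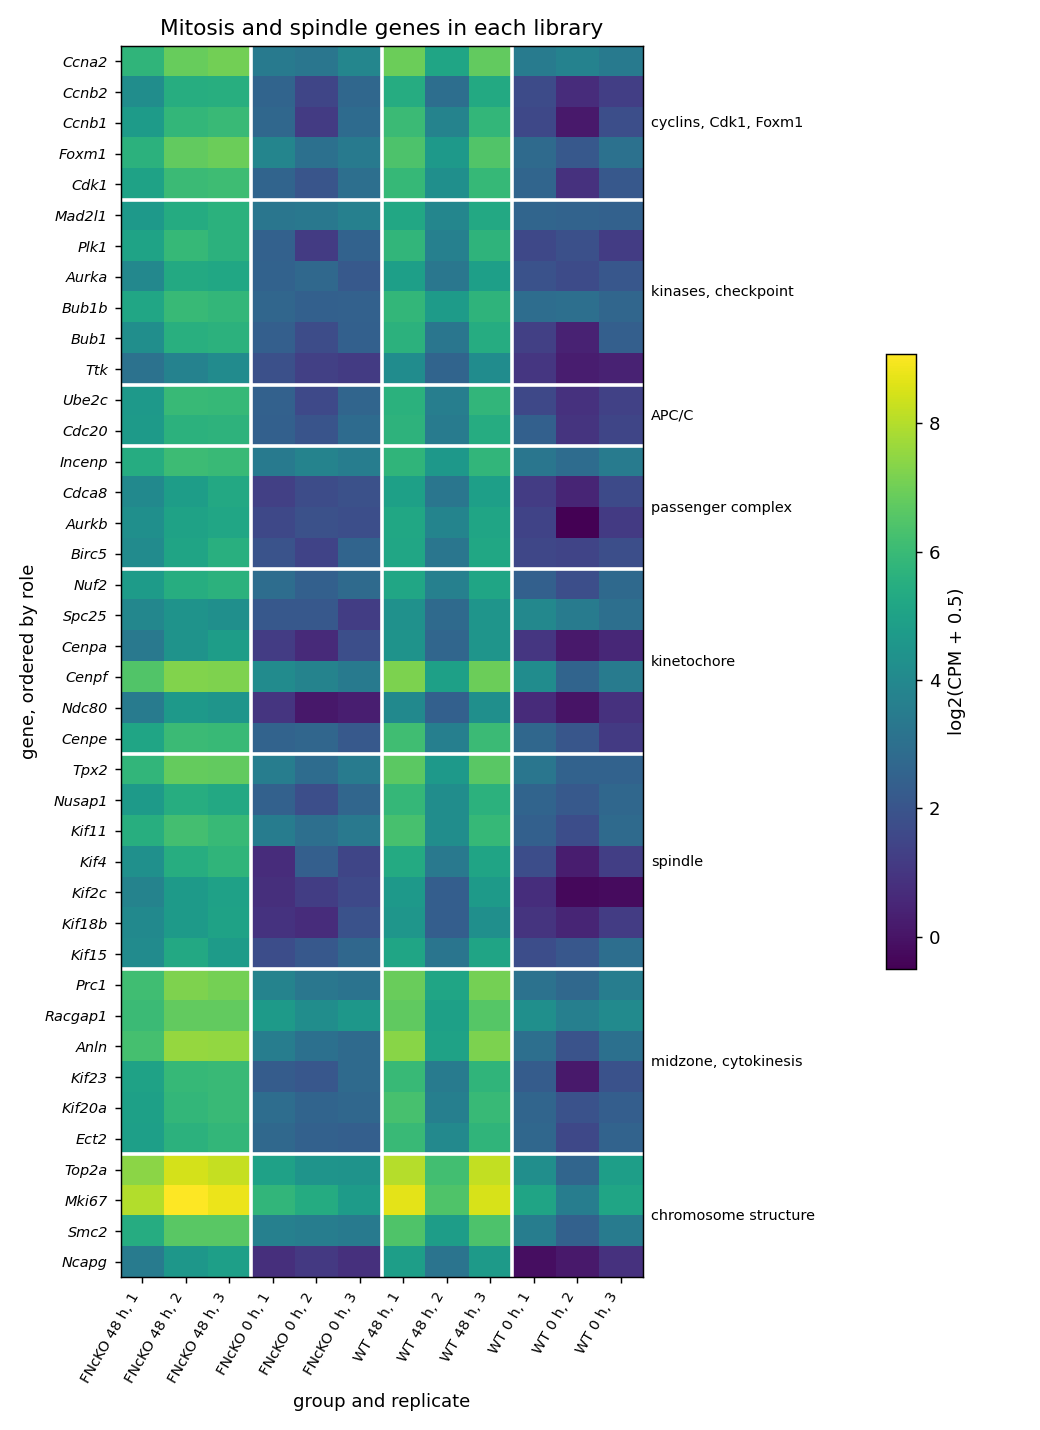
Level of each of the 40 genes, as log2(CPM + 0.5), in the 12 libraries, with genes in rows grouped by role and libraries in columns grouped as FNcKO 48 h, FNcKO 0 h, WT 48 h and WT 0 h. The 48 h columns are brighter than the 0 h columns for all genes but Spc25 in WT, and the column of WT 48 h replicate 2 is the darkest of the 6 at 48 h.

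Because the genes moved together, their promoters were read for the known G2/M elements. RefSeq promoters (GRCm38.p6, which is mm10, from 250 bases before to 50 after the start of transcription) were held for 34 of the 40 genes, which gave 36 promoters. A CHR was taken as TTTGAA or TTCGAA and a CCAAT box as CCAAT, each on either strand. A CHR occurred in 30 of the 36 promoters (83.3%), against 13.6% of 13931 promoters of tested genes and 19.2% of all 32851 promoters held. Within 50 bases of the start site a CHR was found in 28 of the 36 (77.8%), against 3.42% of the promoters of tested genes. CCAAT occurred in 28 of the 36 (77.8%), against 37.4% of the promoters of tested genes and 37.4% of all promoters held. Both motifs were present in 26 (72.2%), against 5.51% of the promoters of tested genes and 7.52% of all promoters held. The genes with no CHR in the window were Nuf2, Nusap1, Cenpe, Mad2l1, Birc5 and Ccnb1. A match is a description of letters and not a binding site.

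The 150 bases before the start are printed for 6 genes that hold both motifs there, and for Spc25, the gene that stood apart in WT. Ect2, Smc2 and a promoter of Prc1 also hold both motifs there and are not printed. Each sequence runs 5′ to 3′ toward the gene and ends at the base before the start, and capitals mark the CCAAT box and the CHR on either strand. They lie at chr10:69352913-69353062 on the minus strand (Cdk1), chr2:164769779-164769928 on the plus strand (Ube2c), chr4:118437344-118437493 on the minus strand (Cdc20), chr19:37376232-37376381 on the plus strand (Kif11), chr11:99024190-99024339 on the minus strand (Top2a), chr7:135716380-135716529 on the minus strand (Mki67) and chr2:69206214-69206363 on the minus strand (Spc25).
Cdk1: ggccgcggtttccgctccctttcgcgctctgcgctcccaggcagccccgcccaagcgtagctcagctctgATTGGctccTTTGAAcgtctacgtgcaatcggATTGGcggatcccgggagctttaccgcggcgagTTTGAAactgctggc
Ube2c: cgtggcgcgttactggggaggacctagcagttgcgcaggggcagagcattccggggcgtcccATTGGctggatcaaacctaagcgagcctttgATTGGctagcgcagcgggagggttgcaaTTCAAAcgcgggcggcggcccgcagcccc
Cdc20: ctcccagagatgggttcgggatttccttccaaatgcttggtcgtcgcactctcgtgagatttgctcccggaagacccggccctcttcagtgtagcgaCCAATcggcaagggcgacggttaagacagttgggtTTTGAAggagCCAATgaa
Kif11: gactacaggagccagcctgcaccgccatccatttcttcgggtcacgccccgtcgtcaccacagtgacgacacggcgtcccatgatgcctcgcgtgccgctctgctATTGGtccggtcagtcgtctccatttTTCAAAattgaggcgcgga
Top2a: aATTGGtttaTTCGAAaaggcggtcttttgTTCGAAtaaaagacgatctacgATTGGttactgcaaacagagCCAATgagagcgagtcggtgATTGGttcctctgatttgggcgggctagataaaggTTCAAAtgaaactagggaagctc
Mki67: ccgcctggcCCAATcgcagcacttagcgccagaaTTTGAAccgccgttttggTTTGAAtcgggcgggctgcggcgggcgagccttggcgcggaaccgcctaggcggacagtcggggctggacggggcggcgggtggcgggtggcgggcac
Spc25: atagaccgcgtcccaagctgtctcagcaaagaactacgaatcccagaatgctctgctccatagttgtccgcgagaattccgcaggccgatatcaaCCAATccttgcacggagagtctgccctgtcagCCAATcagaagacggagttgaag
Cdk1, Ube2c, Cdc20, Kif11 and Top2a carry a CHR with its first base between 15 and 29 bases before the start, with a CCAAT box further out. Mki67 carries CHR letters at 116 and 98 bases before the start. Spc25 shows a pair of CCAAT boxes and no CHR in these 150 bases, and 1 CHR in the 50 bases after the start of transcription. This did not set Spc25 apart. Bub1, Aurka, Ttk, Kif18b, Cenpa, Cenpf and Ccnb1 also hold 2 CCAAT boxes and no CHR in their 150 bases, and all of them rose in WT. All of these but Ccnb1 hold a CHR elsewhere in the promoter window. So do Bub1b, Cdca8, Plk1, Anln, Kif23, Ccnb2, Racgap1, Ndc80 and Kif4, with none in their 150 bases. The CHR before the start in the printed genes is therefore not the layout of the whole set.

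Cyclins, Cdk1 and Foxm1 form the engine of mitotic entry. Ccna2 encodes cyclin A2, which acts in S phase and G2, and Ccnb1 and Ccnb2 encode the B cyclins that bind Cdk1. All 5 genes of this group rose in both genotypes. Ccna2 had 54.3, 115 and 132 CPM in FNcKO at 48 h, against 10.2, 9.0 and 14.3 CPM at 0 h, and 122, 34.1 and 109 CPM in WT at 48 h, against 10.8, 13 and 10.2 CPM at 0 h. Each 48 h library lay above all 0 h libraries, and the gap was narrowest for WT replicate 2. The change was 9.03-fold in FNcKO (edgeR, log2 3.17, SE 0.47, BH-adjusted p = 0.000767) and 7.76-fold in WT (edgeR, log2 2.96, SE 0.46, BH-adjusted p = 0.000734). Ccnb2 had 17.9, 44.1 and 44.8 CPM in FNcKO at 48 h, against 5.48, 2.31 and 6.02 CPM at 0 h, and 42.2, 7.29 and 39.1 CPM in WT at 48 h, against 2.71, 1.12 and 1.93 CPM at 0 h. Its groups did not overlap, with FNcKO 0 h replicate 2 the lowest of its group and WT 48 h replicate 2 close to the FNcKO 0 h libraries. It rose 7.76-fold in FNcKO (edgeR, log2 2.96, SE 0.64, BH-adjusted p = 0.00649) and 15.3-fold in WT (edgeR, log2 3.93, SE 0.69, BH-adjusted p = 0.00152). Ccnb1 rose 10.2-fold in FNcKO and 22.1-fold in WT, and Cdk1, the kinase itself, 10.1-fold and 12.7-fold. Foxm1, the transcription factor named above, rose 8.83-fold to 93.7 ± 38.3 CPM in FNcKO and 10.8-fold to 66.1 ± 36.1 CPM in WT (SD, n = 3 each).

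Mitotic kinases and the spindle checkpoint were represented by Plk1, Aurka, Ttk, Bub1, Bub1b and Mad2l1, and all 6 rose in both genotypes. Mad2l1 encodes Mad2, the checkpoint protein that binds Cdc20. It had 24.2, 41.2 and 48.7 CPM in FNcKO at 48 h, against 8.94, 9.7 and 12.2 CPM at 0 h, and 37.4, 14.2 and 38.2 CPM in WT at 48 h, against 5.72, 5.3 and 5.06 CPM at 0 h. Its groups did not overlap over time, and its 0 h level was higher in each FNcKO library than in any WT library. The change was 3.71-fold in FNcKO (edgeR, log2 1.89, SE 0.35, BH-adjusted p = 0.00201), the smallest of the 40 there, and 5.57-fold in WT (edgeR, log2 2.48, SE 0.36, BH-adjusted p = 0.000346). Plk1, a kinase of centrosome maturation, mitotic entry and cytokinesis, had 32.6, 59.4 and 49.5 CPM in FNcKO at 48 h, against 5.03, 1.73 and 5.16 CPM at 0 h, and 54.7, 12.1 and 52.3 CPM in WT at 48 h, against 2.51, 3.06 and 1.81 CPM at 0 h. All 48 h libraries were above all 0 h libraries in both genotypes. It rose 11.9-fold in FNcKO (edgeR, log2 3.57, SE 0.57, BH-adjusted p = 0.00109) and 16-fold in WT (edgeR, log2 4.0, SE 0.58, BH-adjusted p = 0.000504). Bub1b, which encodes the checkpoint protein BubR1, had the smallest adjusted p of the 40 in both genotypes, with 9.74-fold in FNcKO (edgeR, BH-adjusted p = 1.95e-05) and 6.66-fold in WT (edgeR, BH-adjusted p = 4.34e-05). Aurka, the kinase of spindle poles, rose 5.89-fold and 7.04-fold in FNcKO and WT, the checkpoint kinase Bub1 9.16-fold and 13.7-fold, and the checkpoint kinase Ttk (Mps1) 5.63-fold and 12.8-fold.

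The APC/C ubiquitinates cyclin B and securin and so ends mitosis. Cdc20 is its activator and Ube2c its ubiquitin-conjugating enzyme. Ube2c had 24.9, 61.5 and 60.1 CPM in FNcKO at 48 h, against 5.03, 2.54 and 5.59 CPM at 0 h, and 49.2, 11.5 and 55 CPM in WT at 48 h, against 2.51, 1.33 and 2.05 CPM at 0 h. The 48 h and 0 h libraries were separate in both genotypes. Ube2c rose 11.2-fold in FNcKO (edgeR, log2 3.48, SE 0.58, BH-adjusted p = 0.00161) and 19.5-fold in WT (edgeR, log2 4.29, SE 0.62, BH-adjusted p = 0.000524). Cdc20 had 25.6, 49.8 and 51.4 CPM in FNcKO at 48 h, against 4.92, 3.46 and 6.74 CPM at 0 h, and 51.4, 10.6 and 43.1 CPM in WT at 48 h, against 4.92, 1.43 and 2.29 CPM at 0 h. The groups over time did not overlap, and WT 0 h replicate 1 stood above the other WT 0 h libraries. The change was 8.42-fold in FNcKO (edgeR, log2 3.07, SE 0.59, BH-adjusted p = 0.00344) and 12.1-fold in WT (edgeR, log2 3.59, SE 0.61, BH-adjusted p = 0.00128), and without WT 0 h replicate 1 the WT log2 fold change was 4.24.

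The chromosomal passenger complex corrects faulty attachments and steers cytokinesis, and its subunits are the kinase Aurkb, the scaffold Incenp, and survivin (Birc5) and borealin (Cdca8), which bring it to centromeres. All 4 subunits rose in both genotypes. Incenp had 42.6, 66.1 and 63.2 CPM in FNcKO at 48 h, against 10.2, 13.2 and 11.2 CPM at 0 h, and 54.5, 23.8 and 56 CPM in WT at 48 h, against 9.13, 6.83 and 10.6 CPM at 0 h. All 48 h libraries were higher than all 0 h libraries. Incenp rose 4.97-fold in FNcKO (edgeR, log2 2.31, SE 0.31, BH-adjusted p = 0.000282) and 5.06-fold in WT (edgeR, log2 2.34, SE 0.31, BH-adjusted p = 0.000175). Cdca8 had 16.1, 28 and 38.2 CPM in FNcKO at 48 h, against 2.01, 2.77 and 3.16 CPM at 0 h, and 30.3, 8.94 and 29.5 CPM in WT at 48 h, against 1.81, 0.918 and 2.65 CPM at 0 h. The groups were separate over time in both genotypes. Cdca8 rose 10.4-fold in FNcKO (edgeR, log2 3.37, SE 0.51, BH-adjusted p = 0.00068) and 12.8-fold in WT (edgeR, log2 3.68, SE 0.53, BH-adjusted p = 0.000334). Birc5 rose 8.88-fold and 10.6-fold in FNcKO and WT, and Aurkb 9.94-fold and 20.3-fold. The WT 0 h level of Aurkb reached down to 2 counts in replicate 2.

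Kinetochore and centromere genes held both the largest FNcKO change and the exception in WT. Ndc80 (chr17:71496100-71526857), Nuf2 and Spc25 encode subunits of the NDC80 complex, which grips the microtubule. Ndc80 had 10.8, 24.7 and 22.1 CPM in FNcKO at 48 h, against 1.45, 0.577 and 0.717 CPM at 0 h, and 16.2, 4.86 and 18.6 CPM in WT at 48 h, against 1.1, 0.51 and 1.33 CPM at 0 h. All 0 h libraries were low, and the 48 h libraries lay apart from them in both genotypes. The change was 20.4-fold in FNcKO (edgeR, log2 4.35, SE 0.59, BH-adjusted p = 0.000304) and 13.4-fold in WT (edgeR, log2 3.75, SE 0.57, BH-adjusted p = 0.00045). Nuf2 had 26.3, 43.7 and 49.8 CPM in FNcKO at 48 h, against 7.04, 4.96 and 6.45 CPM at 0 h, and 35.3, 12.2 and 34.3 CPM in WT at 48 h, against 4.92, 2.96 and 6.39 CPM at 0 h. No 48 h library reached down to the 0 h libraries. Nuf2 rose 6.48-fold in FNcKO (edgeR, log2 2.70, SE 0.41, BH-adjusted p = 0.000659) and 5.76-fold in WT (edgeR, log2 2.53, SE 0.41, BH-adjusted p = 0.000692). Cenpa, the histone variant that marks centromeres, rose 10.1-fold in FNcKO and 15.7-fold in WT, the kinetochore kinesin Cenpe 10.5-fold and 12.8-fold, and Cenpf, a large kinetochore protein, 9.64-fold and 8.76-fold.

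Spc25 (chr2:69193895-69206190) did not follow its partners in WT. It had 14.7, 20.9 and 18.7 CPM in FNcKO at 48 h, against 3.91, 3.92 and 1.86 CPM at 0 h. In WT it had 19.6, 6.42 and 21.8 CPM at 48 h, against 15, 10.7 and 7.47 CPM at 0 h. The FNcKO groups were separate, whereas the WT groups overlapped because WT 48 h replicate 2 lay below all WT 0 h libraries. Spc25 rose 5.52-fold in FNcKO (edgeR, log2 2.46, SE 0.45, BH-adjusted p = 0.0018), and in WT the value was 1.44-fold (edgeR, log2 0.52, SE 0.41, BH-adjusted p = 0.35). Without WT 48 h replicate 2 the WT log2 fold change was 0.90 with an adjusted p of 0.0595 (edgeR, BH), still short of the threshold. The 48 h levels of the genotypes lay close together (FNcKO over WT, log2 0.18), and the larger value was at 0 h, where every FNcKO library lay below every WT library (edgeR, log2 −1.76, SE 0.45, BH-adjusted p = 0.222). DESeq2 called that 0 h difference (log2 −1.77, BH-adjusted p = 0.0203), as it did for 0.893% of all tested genes. The test of the difference between the responses gave a log2 value of 1.94 with an unadjusted p of 0.00645 and a BH-adjusted p of 0.945 (edgeR), so a difference in response was not shown after adjustment.

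**Figure D2:**
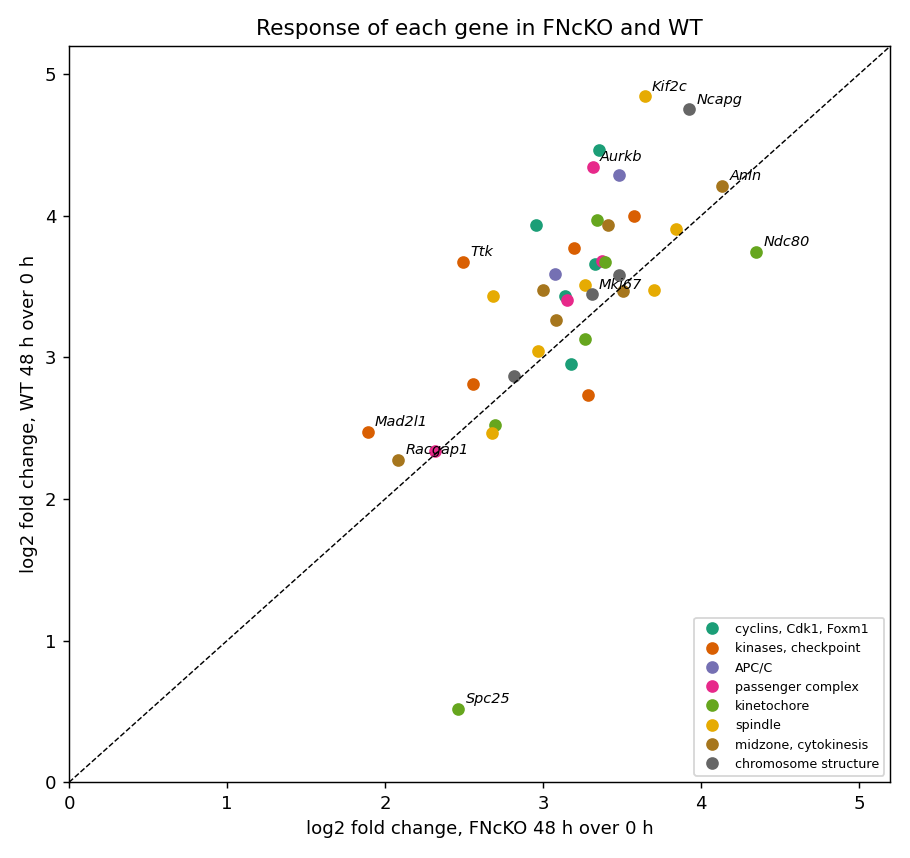
Log2 fold change of each of the 40 genes, 48 h over 0 h, FNcKO on the horizontal and WT on the vertical axis, coloured by role, with the dashed line marking equal change. Spc25 lies far below the line, at 2.46 in FNcKO and 0.52 in WT, while all other genes lie between 1.89 and 4.84 on both axes.

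Spindle genes comprised kinesins and microtubule proteins, and all 7 rose in both genotypes. Tpx2 nucleates microtubules and activates Aurora A. It had 54.8, 111 and 110.0 CPM in FNcKO at 48 h, against 11.3, 6.81 and 10.6 CPM at 0 h, and 102, 24.5 and 97.5 CPM in WT at 48 h, against 9.13, 5.2 and 5.18 CPM at 0 h. The groups over time did not overlap. Tpx2 rose 9.61-fold in FNcKO (edgeR, log2 3.26, SE 0.52, BH-adjusted p = 0.00116) and 11.4-fold in WT (edgeR, log2 3.51, SE 0.53, BH-adjusted p = 0.000618). Nusap1, which bundles microtubules near chromosomes, had 25.6, 43.5 and 38.4 CPM in FNcKO at 48 h, against 5.03, 3.0 and 5.74 CPM at 0 h, and 58.1, 17.7 and 50.3 CPM in WT at 48 h, against 5.42, 3.98 and 5.9 CPM at 0 h. All 48 h libraries were higher than all 0 h libraries. The change was 7.82-fold in FNcKO (edgeR, log2 2.97, SE 0.42, BH-adjusted p = 0.000434) and 8.24-fold in WT (edgeR, log2 3.04, SE 0.41, BH-adjusted p = 0.000238). Kif2c (chr4:117159633-117182624), the microtubule depolymerase MCAK, had 13.1, 25.8 and 31.4 CPM in FNcKO at 48 h, against 1.23, 1.85 and 2.58 CPM at 0 h, and 25.4, 4.67 and 25.8 CPM in WT at 48 h, against 1.2, 0.306 and 0.361 CPM at 0 h. Only WT 0 h replicate 1 held more than a few counts in that group, and all groups over time were separate. Kif2c rose 12.5-fold in FNcKO (edgeR, log2 3.64, SE 0.66, BH-adjusted p = 0.00209) and 28.7-fold in WT (edgeR, log2 4.84, SE 0.73, BH-adjusted p = 0.00055). Without WT 0 h replicate 1 the WT log2 fold change of Kif2c was 5.76. The spindle motor Kif11 (Eg5) rose 6.42-fold and 10.8-fold in FNcKO and WT, Kif15, which acts beside it, 6.39-fold and 5.54-fold, the chromokinesin Kif4 14.3-fold and 15-fold, and Kif18b, which limits astral microtubules, 13-fold and 11.1-fold. Without FNcKO 0 h replicate 2 the FNcKO log2 fold change of Kif4 was 4.54.

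At the midzone, Prc1 bundles antiparallel microtubules, Kif23 and Racgap1 form centralspindlin, Ect2 activates RhoA, Kif20a carries the passenger complex and Anln (anillin) scaffolds the contractile ring. All 6 rose in both genotypes. Prc1 had 70.2, 148 and 133 CPM in FNcKO at 48 h, against 13.1, 9.23 and 8.46 CPM at 0 h, and 118, 34.1 and 133 CPM in WT at 48 h, against 8.23, 6.22 and 11.3 CPM at 0 h. No 48 h library was as low as a 0 h library. Prc1 rose 11.3-fold in FNcKO (edgeR, log2 3.50, SE 0.49, BH-adjusted p = 0.000603) and 11.1-fold in WT (edgeR, log2 3.47, SE 0.49, BH-adjusted p = 0.000452). Racgap1 had 64, 110.0 and 109 CPM in FNcKO at 48 h, against 25.7, 17.9 and 23.1 CPM at 0 h, and 107, 30.1 and 93.6 CPM in WT at 48 h, against 19, 12 and 16.6 CPM at 0 h. Its groups over time were separate, with WT 48 h replicate 2 just above the FNcKO 0 h libraries. The change was 4.24-fold in FNcKO (edgeR, log2 2.08, SE 0.40, BH-adjusted p = 0.00331) and 4.85-fold in WT (edgeR, log2 2.28, SE 0.41, BH-adjusted p = 0.00157), the smallest called change in WT. Anln rose most of this group, 17.6-fold to 150.0 ± 64.2 CPM in FNcKO and 18.6-fold to 114 ± 71.8 CPM in WT (SD, n = 3 each). Kif23 rose 10.7-fold and 15.3-fold in FNcKO and WT, Ect2 8.47-fold and 9.59-fold, and Kif20a 7.99-fold and 11.1-fold.

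Of the genes of chromosome structure, Top2a untangles sister chromatids, Mki67 encodes the Ki-67 protein of the chromosome surface used to stain dividing cells, and Smc2 and Ncapg are condensin subunits. All 4 rose in both genotypes. Top2a had 171, 351 and 304 CPM in FNcKO at 48 h, against 31.4, 21.6 and 20.8 CPM at 0 h, and 261, 71.9 and 292 CPM in WT at 48 h, against 18.1, 5.71 and 28.7 CPM at 0 h. The groups over time did not overlap, with replicate 2 the lowest in both WT groups. Top2a rose 11.2-fold in FNcKO (edgeR, log2 3.48, SE 0.62, BH-adjusted p = 0.00263) and 12-fold in WT (edgeR, log2 3.58, SE 0.63, BH-adjusted p = 0.00176). Mki67 had 251, 541 and 440.0 CPM in FNcKO at 48 h, against 55.8, 41.3 and 26.8 CPM at 0 h, and 411, 86.1 and 366 CPM in WT at 48 h, against 33.6, 11.4 and 34.2 CPM at 0 h. Here too all 48 h libraries were above all 0 h libraries and replicate 2 was the lowest WT library at both times. The change was 9.91-fold in FNcKO (edgeR, log2 3.31, SE 0.61, BH-adjusted p = 0.00292) and 10.9-fold in WT (edgeR, log2 3.45, SE 0.62, BH-adjusted p = 0.00184). Smc2 rose 7.04-fold and 7.31-fold in FNcKO and WT, and Ncapg 15.2-fold and 27-fold.

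Per kilobase of the length given in the files, the level at 48 h spanned 4.08 CPM (Ttk) to 52.8 CPM (Top2a) in FNcKO, with Ube2c next at 52.4 CPM, and 4.27 CPM (Ttk) to 41.4 CPM (Ube2c) in WT, with Top2a next at 39.95 CPM. Top2a and Ube2c thus changed places between the genotypes and did not differ beyond their spread, since Top2a alone had an SD of 93.3 around a mean of 276 CPM in FNcKO. Over the 40 genes, the log2 fold changes in FNcKO and WT had a Pearson r of 0.69 and a Spearman rho of 0.74, as a description across genes that share the same libraries.

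At 48 h the level of the whole set differed between libraries of one group by more than between genotypes. WT 48 h replicate 2 was the lowest of the 6 libraries at 48 h for 40 of the 40 genes, where it was so for 18.5% of all tested genes. Its level was a median 26.6% of the mean of the other WT 48 h libraries over the 40 genes, with Kif20a lowest at 17.0% and Bub1b highest at 48.4%, against 98.5% over all tested genes. FNcKO 48 h replicate 1 was second lowest for 40 of the 40, where it was so for 18.3% of all tested genes, at a median 50.7% of the other FNcKO 48 h libraries, against 99.3% over all tested genes. At 0 h, WT replicate 2 was lowest for 29 of the 40, where it was so for 20.4% of all tested genes. The share in WT 48 h replicate 2 differed between the cell cycle lists. It was a median 26.6% for the 40 genes, 33.9% for 82 further mitosis genes, 51.7% for 30 DNA replication genes and 74.3% for 22 G1 cyclin and inhibitor genes. In FNcKO 48 h replicate 1 the corresponding medians were 50.7%, 58.1%, 52.0% and 66.4%. The median log2 fold changes of these lists in WT were 3.49, 2.41, 2.15 and 1.13, so lists that rose more in WT had the lower share in WT 48 h replicate 2. Cell cycle phase and size of response were not told apart. The ratio of the summed 40 genes to the summed replication genes was 1.45, 1.75 and 1.28 in FNcKO 48 h libraries, against 0.799, 0.691 and 0.659 in FNcKO 0 h libraries. In WT it was 1.66, 0.849 and 1.66 at 48 h, against 0.760, 0.536 and 0.666 at 0 h. Even the low WT library lay above every 0 h library in this ratio.

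**Figure D3:**
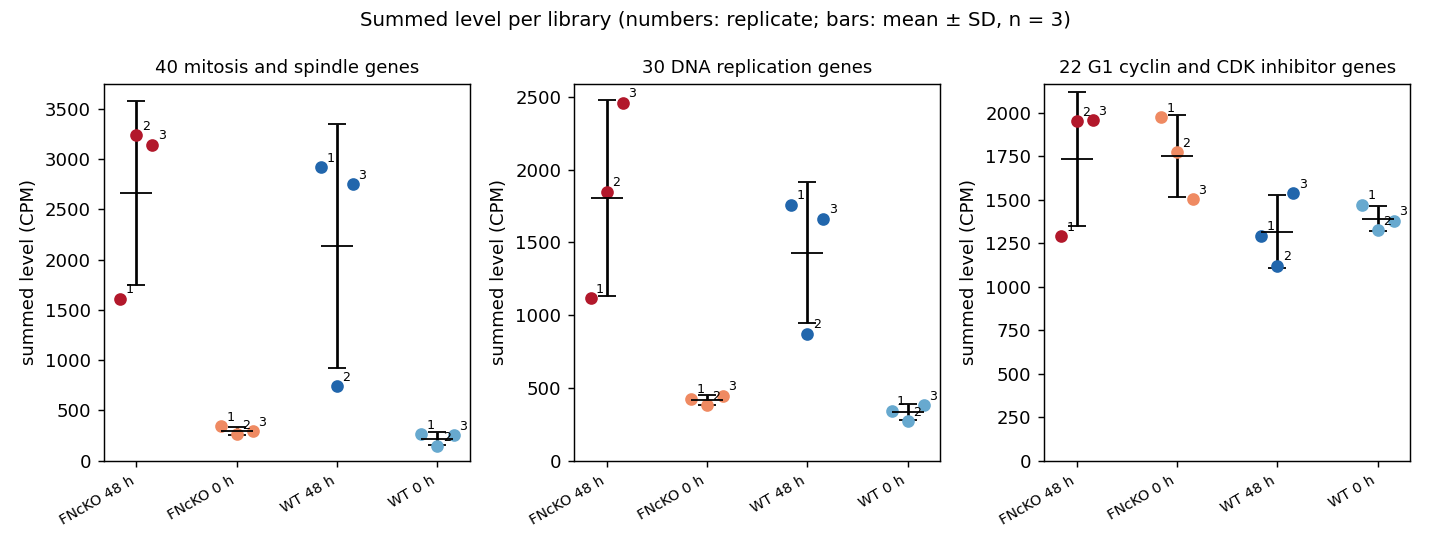
Summed CPM per library of the 40 mitosis and spindle genes (left), 30 DNA replication genes (middle) and 22 G1 cyclin and CDK inhibitor genes (right), with replicate numbers beside the points and mean ± SD (n = 3) as bars. The 40 genes reach 740 to 3240 CPM at 48 h and 146 to 341 CPM at 0 h, and the G1 panel shows no such separation.

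Markers of other cells also differed between libraries, but not every list set the 2 low 48 h libraries apart. The summed level of 10 lens fiber markers was 29397, 13660 and 2018 CPM in FNcKO and 3014, 16306 and 11790 CPM in WT libraries at 48 h, and 42986, 49187 and 91534 CPM in FNcKO and 59310, 33171 and 42296 CPM in WT libraries at 0 h. The library with the lowest mitosis level of each genotype at 48 h therefore had the highest fiber marker sum of its group. In WT the other libraries kept this reverse order, but with unlike steps. WT 48 h replicates 1 and 3 had fiber sums of 3014 and 11790 CPM, while their mitosis sums were 2919 and 2752 CPM. In FNcKO the other libraries did not keep it. FNcKO 48 h replicates 2 and 3 had fiber sums of 13660 and 2018 CPM and mitosis sums of 3240 and 3145 CPM. Fiber markers also fell over time, with 4 of 10 called lower in FNcKO and 5 of 10 in WT. The 6 photoreceptor markers summed to 2761, 247.9 and 1637 CPM in FNcKO and 1010, 3032 and 1521 CPM in WT at 48 h, so the same 2 libraries were highest there too.
Leukocyte markers (6 genes) summed to 87.4, 150.5 and 244.2 CPM in FNcKO and 506.7, 229.3 and 154.5 CPM in WT at 48 h, against 10.8 to 25.2 CPM in FNcKO and 16.8 to 43.2 CPM in WT at 0 h, and 5 of 6 rose in FNcKO and 6 of 6 in WT. Neutrophil markers (7 genes) summed to 62.0 to 193.1 CPM in FNcKO and 103.4 to 596.9 CPM in WT at 48 h, against 5.26 to 7.17 CPM and 7.02 to 12.2 CPM at 0 h. Macrophage markers (9 genes) summed to 185.3 to 432.1 CPM in FNcKO and 272.2 to 792.6 CPM in WT at 48 h, against 44.8 to 90.2 CPM and 54.4 to 134.7 CPM at 0 h, while 6 lymphocyte markers stayed at or under 1.24 CPM in every library. Endothelial markers (6 genes) summed to 39.5, 17.7 and 43.5 CPM in FNcKO and 40.6, 70.8 and 44.3 CPM in WT at 48 h, against 4.03 to 20.1 CPM in FNcKO and 13.1 to 39.4 CPM in WT at 0 h. Of them 4 of 6 rose in each genotype, with medians of 3.11 in FNcKO and 2.74 in WT (log2), and the cadherin gene Cdh5 rose 7.24-fold in FNcKO and 19-fold in WT.
Pigment cell markers (6 genes) differed between the genotypes, at 62.6, 40.2 and 17.3 CPM in FNcKO and 435.6, 399.8 and 169.2 CPM in WT at 48 h, and at 139.3 to 164.2 CPM in FNcKO and 197.3 to 272.1 CPM in WT at 0 h. At 48 h 3 of 6 (Tyr, Tyrp1 and Mlana) were called lower in FNcKO than in WT, with a median log2 difference of −3.26 over the 6. Over time 2 of the 6 fell and 0 rose in FNcKO, and 1 fell and 2 rose in WT. Corneal markers (6 genes) summed to 1346, 1268 and 698 CPM in FNcKO and 363.5, 985.9 and 741.9 CPM in WT at 48 h. FNcKO 48 h replicate 1 and WT 48 h replicate 2 were thus the highest of their groups for this list as well. Of 4 corneal markers tested, 1 (Krt4) fell in each genotype, and 0 of the 6 photoreceptor markers passed over time.
Lens epithelial markers (10 genes) were detected in every group but were lower at 48 h. They summed to 17516, 12598 and 2905 CPM in FNcKO and 3867, 9999 and 10004 CPM in WT at 48 h, against 27029 to 53548 CPM in FNcKO and 20271 to 34348 CPM in WT at 0 h. Of the 10, 6 fell and 0 rose in FNcKO, and 5 fell and 0 rose in WT, with medians of −1.29 and −1.38 (log2). The largest fall was that of Npnt (log2 −2.97 in FNcKO and −2.96 in WT). The smallest change in WT was that of the transcription factor gene Pax6, which was called lower in FNcKO (edgeR, log2 −0.54, SE 0.17, BH-adjusted p = 0.0336) and missed the threshold in WT (edgeR, log2 −0.29, SE 0.17, BH-adjusted p = 0.2), at 355 ± 55.4 CPM in FNcKO and 372 ± 20.1 CPM in WT at 48 h, against 514 ± 7.46 CPM in FNcKO and 456 ± 48.4 CPM in WT at 0 h (SD, n = 3 each). No marker list was at 0 in all its genes, and the part of these cells in the mitosis levels was not tested.

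FNcKO and WT capsules were compared next at the same time. At 48 h, 0 of the 40 genes passed (edgeR, BH), where 0.24% of all tested genes passed in either direction, and 0 had an unadjusted p under 0.05. Over all 14560 tested genes, 796 had an unadjusted p under 0.05 at 48 h (edgeR). DESeq2 and limma-voom also called 0 of the 40. The median log2 difference of the 40 was 0.27, with 37 of 40 above 0, but the libraries of the genotypes overlapped for all 40. Over all tested genes, 4.48% had every FNcKO 48 h library above every WT 48 h library and 5.25% had every one below. Without WT 48 h replicate 2 the median was −0.13, with 9 of 40 above 0. Without FNcKO 48 h replicate 1, the low library of that genotype, the median was 0.54, with 39 of 40 above 0. The median of the FNcKO libraries lay above that of the WT libraries for 27 of the 40. The difference between the genotypes at 48 h was thus smaller than the spread within the groups. Of the libraries left out one at a time, its direction turned only without WT 48 h replicate 2. The largest value was that of Kif18b (log2 0.69, edgeR, BH-adjusted p = 1), with 16, 26.1 and 32.2 CPM in FNcKO and 22.8, 4.57 and 18.6 CPM in WT.

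**Figure D4:**
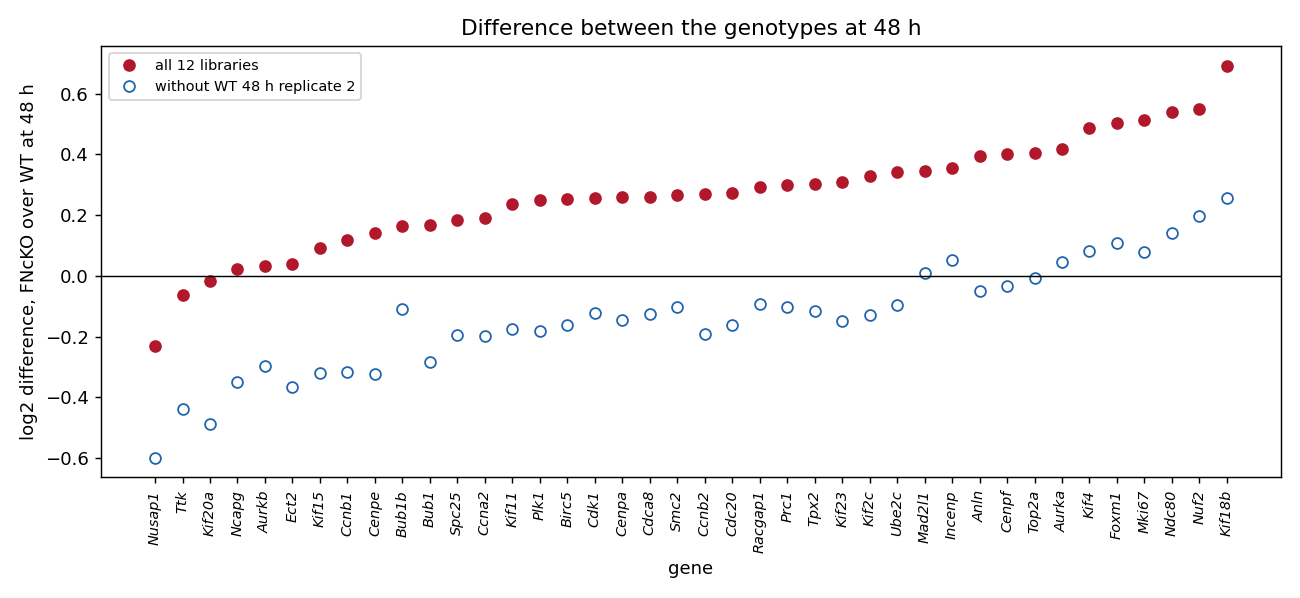
Log2 difference of FNcKO over WT at 48 h for each of the 40 genes, with all 12 libraries (filled) and without WT 48 h replicate 2 (open), in order of the filled points. The filled points lie above 0 for 37 genes and the open points for 9.

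At 0 h, 0 of the 40 passed (edgeR, BH), where 0.144% of all tested genes passed in either direction, and 2 had an unadjusted p under 0.05. These were Spc25, described above, and Mad2l1 (log2 0.93, edgeR, BH-adjusted p = 0.403). Of all 14560 tested genes, 1603 had an unadjusted p under 0.05 in this edgeR fit. Over the alternatives the number among the 40 ran from 1 with limma-voom to 8 with edgeR without WT 48 h replicate 2. The median log2 difference was 0.55, with 34 of 40 above 0, against 0.01 over all tested genes, and without WT 0 h replicate 2 it was 0.30. Every FNcKO 0 h library lay above every WT 0 h library for 7 of the 40, namely Aurka, Aurkb, Kif11, Ttk, Kif2c, Mad2l1 and Ube2c, where 8.68% of all tested genes showed this. Spc25 was the 1 gene with every FNcKO library below, where 7.95% of all tested genes showed this. FNcKO and WT were then compared in how far each changed over time, and this difference in response was called for 0 of the 40 (edgeR, BH), and for 0.0% of all tested genes, with 1 of the 40, Spc25, at an unadjusted p under 0.05. Over all 14560 tested genes, 735 had an unadjusted p under 0.05 for this difference in response (edgeR). DESeq2 and limma-voom called 0 of the 40. Its median was −0.25 on the log2 scale, with 31 of 40 genes responding more in WT. Without WT 48 h replicate 1 that median was 0.02, and without FNcKO 48 h replicate 1 it was also 0.02. A gene that missed the threshold is not shown to respond alike in both genotypes.

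Among 82 further genes of mitosis, 70 rose and 0 fell in FNcKO, and 69 rose and 0 fell in WT, with medians of 2.40 and 2.41. The largest called changes in WT were those of Depdc1b, Cdkn3, Dlgap5 and Gtse1. Depdc1b had 2.43, 7.1 and 5.6 CPM in FNcKO at 48 h, against 0.671, 0.693 and 2.01 CPM at 0 h, and 5.52, 2.24 and 3.22 CPM in WT at 48 h, against 0 counts in all WT 0 h libraries. Its WT mean was at least 11.3-fold higher at 48 h, taking 3 counts per library as the floor at 0 h. The phosphatase gene Cdkn3 had 2.64, 10.8 and 8.35 CPM in FNcKO at 48 h, against 0.894, 0.462 and 0.43 CPM at 0 h, and 7.9, 2.04 and 6.33 CPM in WT at 48 h, against 0.201, 0.0 and 0.0 CPM at 0 h, and it rose in both genotypes (edgeR, BH-adjusted p = 0.0037 in FNcKO and 0.000546 in WT). Dlgap5, a spindle microtubule protein, rose 14-fold in FNcKO and 20.9-fold in WT (edgeR, BH-adjusted p = 0.00112 and 0.000476). Gtse1, a microtubule-binding regulator of G2, rose 11.2-fold and 16.6-fold in FNcKO and WT (edgeR, BH-adjusted p = 0.0018 and 0.00071). Members of the same machinery that did not pass in either genotype included the microtubule polymerase Ckap5 (log2 −0.27 in FNcKO and −0.37 in WT), securin (Pttg1, −0.59 and −0.01), Ska2 (−0.25 and −0.08) and the Cdk1-inhibiting kinase Wee1 (0.54 and 0.43).

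Of 30 DNA replication genes, 27 rose and 0 fell in each genotype, with medians of 2.03 in FNcKO and 2.15 in WT. The ribonucleotide reductase subunit Rrm2 rose 10.3-fold in FNcKO and 14.6-fold in WT, the licensing factor Cdc6 10.4-fold and 12.1-fold, and the helicase subunit Mcm6 8.4-fold and 10.3-fold. Their promoters held a CHR in 20.7% of 29, and within 50 bases of the start in 6.9%, against 77.8% for the mitosis and spindle genes. CCAAT was less far apart between these lists, at 62.1% of the replication promoters and 77.8% of the mitosis and spindle promoters, against 37.4% of those of tested genes, and it occurred at least 2 times in 37.9%, 50.0% and 13.4% of them in the same order. The E2F-like letters TTTNGCG stood in 34.5% of these promoters, 11.1% of those of the mitosis and spindle genes, 6.5% of those of tested genes and 4.22% of all promoters held. The 22 genes of G1 cyclins, kinases and inhibitors did not move as one, with 9 higher and 4 lower in FNcKO and 9 higher and 3 lower in WT. Cdkn1a, the inhibitor p21, had 22.8, 64.8 and 77.6 CPM in FNcKO at 48 h, against 2.68, 4.85 and 2.87 CPM at 0 h, and 54.1, 45.1 and 46.6 CPM in WT at 48 h, against 1.5, 2.55 and 1.33 CPM at 0 h. It rose 15.8-fold in FNcKO (edgeR, log2 3.98, SE 0.43, BH-adjusted p = 8.12e-05) and 26.7-fold in WT (edgeR, log2 4.74, SE 0.46, BH-adjusted p = 2.67e-05), and WT 48 h replicate 2 was close to the other WT libraries for it. Cyclin E1 (Ccne1) rose 6.87-fold and 7.55-fold in FNcKO and WT. Cdkn1c, the inhibitor p57, fell to 23.5 ± 8.2 CPM in FNcKO at 48 h, against 101 ± 30 CPM at 0 h, and to 19.3 ± 11.7 CPM in WT at 48 h, against 98.6 ± 26.4 CPM at 0 h (SD, n = 3 each).

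Some of the 40 share their place with other genes. Exons of 10 of them overlap an exon of a gene on the opposite strand in the GENCODE annotation of mm10, namely Exosc9 for Ccna2, Elovl1 for Cdc20, Cdc23 for Kif20a, Pdzd11 for Kif4, Rccd1 for Prc1, Tnnc2 for Ube2c, 9930104L06Rik for Cdca8, Oip5 for Nusap1, Lcorl for Ncapg and Gm44985 for Plk1. Nothing in the labels or headers gives the strand setting of the counting, so reads there could belong to either gene. On the same strand, exons of Foxm1 share 144 bases with Tex52 and 97 with Gm44596. Those of Top2a share 122 bases with the small RNA gene Gm23451. A strand setting could not separate these. Ccnb1, Ccnb2 and Kif4 also have processed pseudogenes that carry their names, and their single values are less certain for that reason. Pseudogenes under other names were not searched.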

How the data were processed

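RNA-seq was made from 12 libraries in 4 groups of 3. The authors deposited, per the file headers, a whole-number read count per gene and library for 24147 genes. Named in the submitters' processing notes are the mm10 build, TopHat2 2.1.0, HTSeq 0.6.1p1, Trim Galore 0.4.4, edgeR 3.16.5, SAMtools 1.4, bedtools 2.17 and FastQC, without roles or settings. The sources used here do not state the annotation, the strand setting or how multi-mapping reads were treated.

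Those counts went into edgeR 4.0.16 (R 4.3.3): filterByExpr by group (14560 genes kept), TMM scaling, robust quasi-likelihood fit of 4 group means to all 12 libraries, and Benjamini-Hochberg adjustment over all genes of each of 5 comparisons, with adjusted p under 0.05 as the threshold. The SE is the size of the log2 value divided by the square root of F, an approximation. The fit was tested on simulated data. Alternatives used DESeq2 1.42.0, limma 3.58.1 (voom), other scalings and filters, a replicate block and each library left out.

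The members and gene lists were chosen with earlier results of these data known, so no list was tested as a set. Values in every library are given for the 2 genes of each role with the highest level per length, the largest and smallest changes over time, and genes that missed the threshold over time. From the further mitosis list the 4 largest called changes in WT were named, and up to 3 per neighbouring list. Other genes are named after their values were seen. A combined table holds 9 libraries, and its column named for WT 0 h replicate 1 equals FNcKO 0 h replicate 1 in all 24147 genes, so the per-library files were used. A count of 0 allows up to 3 counts, for counting error only.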

Additional observations from a re-analysis of the deposited data

How the results depend on the processing

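Over 22 alternatives the calls over time held, at 40 of the 40 genes in FNcKO, with medians from 3.02 to 3.55, and at 39 in WT, with medians from 3.23 to 3.94. Scaling by total counts brought the median of all genes to 0.29 in FNcKO, against 0.00, and to 0.23 in WT, against 0.02 (log2), and the split of all called genes to 3408 higher and 727 lower in FNcKO, against 2169 and 1442, and to 3888 and 1211 in WT, against 2775 and 1970; the cause was not tested. Between the genotypes at 48 h, the median was −0.13 without WT 48 h replicate 2 and ran to 0.55 over the libraries left out (−0.1278 to 0.5454). The median difference of the responses ran from −0.67 to 0.02 over the libraries left out, being 0.0191 without WT 48 h replicate 1 and 0.0164 without FNcKO 48 h replicate 1. Without WT 48 h replicate 2, 8 of the 40 genes had an unadjusted p under 0.05 for the difference of the responses (edgeR). The number over all tested genes was not taken for that fit, so the 8 have no share to be read against. DESeq2 called 1 of the 40 between genotypes at 0 h, Spc25 (log2 −1.77). For Nusap1 at 48 h the genotype difference ran from −0.60 to 0.07, being 0.0741 without WT 48 h replicate 1. Leaving out WT 0 h replicate 3 gave Bub1 in WT a log2 fold change of 4.57. With all genes counted, the calls between genotypes ran widely: at 48 h 35 with edgeR, 122 with DESeq2 and 7 with the compared groups alone, and at 0 h 21, 130 and, without FNcKO 0 h replicate 1, 4.

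Same-numbered libraries correlated from −0.488 to 0.307 in their deviations from the group means, and differently numbered libraries from −0.289 to 0.475. Deviations within a group of 3 are tied to each other, so these values cannot decide whether same-numbered libraries share a batch. With the replicate block, 40 genes in FNcKO and 39 in WT were called over time (medians 3.32 and 3.41) and 0 in the other comparisons (medians 0.43 at 48 h, 0.59 at 0 h and −0.13 for the responses). Leaving out both 0 h libraries numbered 1, an alternative chosen after seeing the data, gave 40 and 39 over time and 0 elsewhere. Depth limits single genes at 0 h, where the lowest count of a member was 2.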
